A study of Mus musculus with 2 samples.

Results

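The cells described here are medullary thymic epithelial cells (mTECs) of the mouse with high Ccl21a that also carried UMIs of contractile and signalling genes, called contractile cells below. They were chosen from their own counts. Cells with at least 500 genes, at least 1000 UMIs (distinct captured mRNA molecules) and at most 15% mitochondrial UMIs were kept, and among them those with Ccl21a at 50 or more and the summed UMIs of Tagln, Acta2, Fst and Gas1 at 5 or more per 10,000 UMIs. Cells were dropped where Col3a1, Prrx1, Dcn and Bgn summed to 5 or more, 5 cycling genes (Mki67, Top2a, Birc5, Ube2c, Cenpf) to 6 or more, or the tuft genes Trpm5, Dclk1 and Alox5ap to 10 or more per 10,000. This left 1590 contractile cells among 13307 cells that passed the filter, and 607 other Ccl21a-high cells that met every criterion but the contractile sum. All differences between contractile and other Ccl21a-high cells are therefore descriptions of cells separated by their own readout, and none was tested.

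The study profiled sorted mTECs (EPCAM+ Ly51-) of mouse thymus by 10x single-cell RNA sequencing, with 1 library for each of 2 genotypes. The library labelled fl/fl came from Foxn1-Cre(+) Ikarosfl/fl mice and the library labelled +/fl from Foxn1-Cre(+) Ikaros+/fl mice, so both carried Foxn1-Cre, which acts in thymic epithelium, and at least 1 floxed allele of Ikaros, a zinc finger transcription factor (gene Ikzf1). The labels give no age, sex, number of mice or deleted exons. The names of the deposited matrices run against these labels, with the control name on the library labelled fl/fl and the knockout name on the library labelled +/fl, so each group is named by its label throughout.

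CCL21 is the chemokine that, with CCL19, draws CCR7-bearing thymocytes from the cortex into the medulla, and in mouse thymus Ccl21a is its main source in mTECs. Tagln (transgelin) and Acta2 (smooth muscle alpha actin) belong to the actin and myosin apparatus of contractile cells, many of whose genes are controlled by serum response factor (SRF) through the CArG box, a promoter motif that opens with CC, closes with GG and has only A and T between. Fst encodes follistatin, a secreted inhibitor of activins, and Gas1 a surface co-receptor for Hedgehog ligands.

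CArG boxes were looked up in the RefSeq promoter windows of GRCm38.p6, within 250 bases before each RefSeq start of a gene. A gene with several starts was counted if any of them had the motif. The motif was chosen because Tagln and Acta2 head the rule and the next contractile gene, Myl9, had the largest ratio of the genes named as higher below. The motif has the same form on both strands. A full CArG box was present in 5 of the 29 contractile apparatus genes with a window, 17.2%, and in 1.62% of all 27025 genes with a window. Of the 15 genes named as higher in contractile cells below, 11 had a window and only Myl9 held a full CArG box. The 5 contractile apparatus genes are shown 5′ to 3′ on the gene's strand, with the motif in capitals.

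Myl9, chr2:156775293-156775322, plus strand: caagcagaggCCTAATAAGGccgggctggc
Myl6, chr10:128493040-128493069, minus strand: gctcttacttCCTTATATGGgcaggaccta
Cnn2, chr10:79988534-79988563, plus strand: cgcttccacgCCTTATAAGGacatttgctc
Actg1, chr11:120348566-120348595, minus strand: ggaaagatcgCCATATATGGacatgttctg
Vcl, chr14:20929161-20929190, plus strand: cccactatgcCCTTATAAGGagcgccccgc

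Of the rule genes, Acta2 and Gas1 had a window and neither held a full CArG box. With 1 G or C allowed in the core, Acta2 held 2 motifs and Myl9 held a second. The Acta2 motifs precede a RefSeq start but lie inside the wider span given for that gene below. The motif was then in 7 of the 29 contractile apparatus genes (24.1%), Myl12a and Tpm3 added, and in 9.78% of all genes with a window. Of the 11 named higher genes with a window it was in 2, Myl9 and Apoe.

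Acta2, chr19:34255438-34255467, minus strand: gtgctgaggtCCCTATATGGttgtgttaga
Acta2, chr19:34255388-34255417, minus strand: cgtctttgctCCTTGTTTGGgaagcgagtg
Myl9, chr2:156775355-156775384, plus strand: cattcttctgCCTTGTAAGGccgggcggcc

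There were 11095 barcodes with 99871505 UMIs labelled fl/fl, of which 8208 passed the filter, and 7304 barcodes with 85260592 UMIs labelled +/fl, of which 5099 passed. They shared 25 barcodes, none in a contractile cell. The drops removed 11.2% of Ccl21a-high cells labelled fl/fl and 29.2% of those labelled +/fl, mostly for mesenchymal genes (105 and 253 cells). Contractile cells labelled fl/fl had a median of 6843 UMIs against 6921 in other Ccl21a-high cells, and contractile cells labelled +/fl 10691 against 11834.5. Levels below are CPM (UMIs of a gene scaled to 1000000 UMIs), from the UMIs of all cells of a group summed. Intervals are exact 95% Poisson or, for shares, Clopper-Pearson intervals, which cover counting error only, and log2 ratios were taken after adding 1 CPM. With 1 library per genotype no difference between genotypes has a replicate check, and no test was possible.

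Contractile cells made up 12.4% (11.6 to 13.1) of passing cells labelled fl/fl, 1014 cells, and 11.3% (10.4 to 12.2) of those labelled +/fl, 576 cells. Among Ccl21a-high cells they were the majority, 73.7% (71.3 to 76.1) labelled fl/fl and 70.1% (66.8 to 73.2) labelled +/fl. The order of the shares of passing cells depended on the drops: with no cell dropped it was 14.0% labelled fl/fl and 16.7% labelled +/fl. The sort on surface proteins can also set these shares.

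The values that chose the cells ran over a wide range. Ccl21a had a median of 155.5 per 10,000 UMIs (50.2 to 817.5) in contractile cells labelled fl/fl and 171.0 (50 to 575.7) in those labelled +/fl, against 110.2 and 105.9 in the other Ccl21a-high cells of those libraries. The summed level of Tagln, Acta2, Fst and Gas1 had a median of 19.2 per 10,000 (5.02 to 149.5) in contractile cells labelled fl/fl and 15.8 (5.04 to 182.4) in those labelled +/fl. In the other Ccl21a-high cells the medians were 1.56 and 2.07. There was no gap at the threshold: 54 contractile cells labelled fl/fl and 37 labelled +/fl lay between 5 and 6, and 49 and 43 other Ccl21a-high cells between 4 and 5 in those libraries. The plot of Ccl21a against the contractile sum shows this for each cell.

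**Figure D1:**
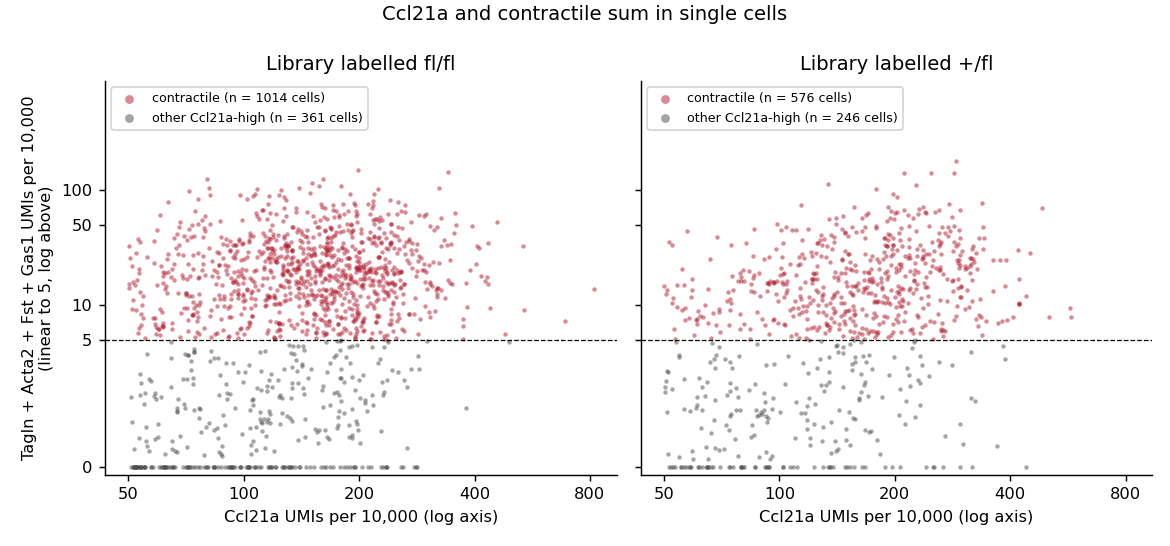
Ccl21a (UMIs per 10,000, log axis) against the summed UMIs of Tagln, Acta2, Fst and Gas1 (per 10,000, linear to 5 and log above) in each Ccl21a-high cell, for the libraries labelled fl/fl (left) and +/fl (right), with contractile cells in red, other Ccl21a-high cells in grey and the rule's threshold of 5 dashed. Cells ran without a gap across the threshold in both libraries, and contractile cells reached 149.5 labelled fl/fl and 182.4 labelled +/fl.

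Tagln was the main source of the sum. It gave 49.7% of the rule's contractile UMIs in contractile cells labelled fl/fl and 48.3% in those labelled +/fl, and Acta2 gave 21.3% and 20.7%. Gas1 gave 17.6% and 22.2%, and Fst 11.4% and 8.79%. Tagln (ENSMUSG00000032085, chromosome 9, 45929619 to 45936058, GRCm38) had 1218 CPM in contractile and 55.6 CPM in other Ccl21a-high cells labelled fl/fl, and 1017 and 55.6 CPM labelled +/fl. Acta2 (ENSMUSG00000035783, chromosome 19, 34241090 to 34255590) had 520 and 19.8 CPM labelled fl/fl, and 436 and 16.3 CPM labelled +/fl. Of the signalling genes, Fst (ENSMUSG00000021765, chromosome 13, 114452290 to 114458951) had 280 CPM in contractile cells labelled fl/fl and 185 CPM in those labelled +/fl, and Gas1 (ENSMUSG00000052957, chromosome 13, 60174405 to 60177365) had 430 and 467 CPM. Ccl21a itself (ENSMUSG00000094686, chromosome 4, 42772860 to 42773993) had 16351 CPM in contractile and 12046 CPM in other Ccl21a-high cells labelled fl/fl, and 17719 and 11612 CPM labelled +/fl. The mouse genome holds near-identical copies of Ccl21a between which reads can be divided, so its level is uncertain. The Ccl21b row held 0 UMIs in contractile cells labelled fl/fl and the Ccl21c row 9.

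The 4 rule genes did not always come together. All 4 had a UMI in 20.9% of contractile cells labelled fl/fl and 24.8% of those labelled +/fl, and only 1 of them in 9.76% and 11.8%. Membership rested on 1 or 2 UMIs in 46 cells (4.54%) labelled fl/fl and 17 cells (2.95%) labelled +/fl. Ccl21a-high cells were therefore also divided by the cytoskeletal pair (Tagln and Acta2 at 5 or more per 10,000) and the signalling pair (Fst and Gas1 at 5 or more). Both pairs were high in 329 cells (23.9%) labelled fl/fl and 177 cells (21.5%) labelled +/fl, the cytoskeletal pair only in 378 (27.5%) and 190 (23.1%), the signalling pair only in 250 (18.2%) and 162 (19.7%), and neither in 418 (30.4%) and 293 (35.6%). The last group includes cells whose 4 genes sum to 5 only together.

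Genes outside the rule differed in which pair they were higher with. Myl9, the regulatory light chain of smooth muscle myosin, had 150 CPM with both pairs high and 112 CPM with the cytoskeletal pair only, but 27.6 CPM with the signalling pair only and 19.9 CPM with neither, labelled fl/fl. Labelled +/fl it had 152, 128, 17.6 and 19.0 CPM in the same 4 groups. Mgp, an extracellular inhibitor of calcification, was instead as high with the signalling pair only, 1999 CPM, as with both pairs, 1995 CPM, and stood at 940 CPM with the cytoskeletal pair only and 515 CPM with neither, labelled fl/fl. Labelled +/fl, Mgp had 1564 CPM with both pairs, 981 with the cytoskeletal pair only, 1180 with the signalling pair only and 440 with neither. Myl9 thus stood with Tagln and Acta2 in both libraries, while Mgp was higher with the signalling pair only than with the cytoskeletal pair only. Others differed between the libraries in this. Cxcl14 had 90.0 CPM with the cytoskeletal pair only and 89.9 CPM with the signalling pair only labelled fl/fl, but 74.0 and 23.2 CPM labelled +/fl. Scx had 92.0 CPM with the cytoskeletal pair only and 125 CPM with the signalling pair only labelled fl/fl, and 68.5 and 64.0 CPM labelled +/fl. Apoe, a lipid carrier, was like Mgp, with 2560 CPM for the signalling pair only and 1488 CPM for the cytoskeletal pair only labelled fl/fl, and 1510 and 1010 CPM labelled +/fl. Sostdc1, a secreted inhibitor of BMP and Wnt signalling, was highest with the signalling pair only, at 48.0 CPM against 24.0 CPM with neither labelled fl/fl and 193 against 68.9 CPM labelled +/fl. Tbata, a thymic stromal regulator of epithelial proliferation, was lowest with both pairs, at 81.0 CPM labelled fl/fl and 213 CPM labelled +/fl. With neither pair it had 558 and 631 CPM, and with the signalling pair only 150 and 349 CPM. With the cytoskeletal pair only it had 228 CPM labelled fl/fl but 741 CPM labelled +/fl, the highest of the 4 groups there.

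Contractile and other Ccl21a-high cells were next compared over all 2878 genes with at least 50 CPM in either group and at least 50 UMIs over both groups in each library, leaving out the rule genes. In both libraries 14 genes (0.486%) were at least 2-fold higher and 25 genes (0.869%) at least 2-fold lower in contractile cells. At any size, 33.5% of genes were higher and 41.7% lower in both. The rule separated the cells on this contrast, so nothing is read from these shares.

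Of the 15 named genes higher in contractile cells, Myl9 had the largest ratio and was the only one on the contractile apparatus list. Myl9 (ENSMUSG00000067818, chromosome 2, 156775420 to 156781658) had 101 CPM (93.6 to 108) in contractile cells against 17.4 CPM (13.01 to 22.9) in other Ccl21a-high cells labelled fl/fl. Labelled +/fl it had 95.3 CPM (88.0 to 103) against 18.2 CPM (14.1 to 23.2), so the folds were 5.51 labelled fl/fl and 5.004 labelled +/fl. The counting intervals of contractile and other cells do not overlap in either library. Myl9 was named for its ratio in this same contrast, and the intervals cover counting error only, so the gap is a description.

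Several of the 15 encode secreted or matrix proteins. Mgp (ENSMUSG00000030218, chromosome 6, 136872435 to 136875823) had 1504 CPM in contractile and 444 CPM in other cells labelled fl/fl, and 1197 and 340 CPM labelled +/fl. Sparc, a collagen-binding matrix protein, had 133 and 47.9 CPM labelled fl/fl, and 107 and 34.8 CPM labelled +/fl. Tgfbi, a matrix protein induced by TGF-β, had 166 and 74.1 CPM labelled fl/fl, and 136 and 63.1 CPM labelled +/fl. All 3 were more than 2-fold higher in contractile cells of both libraries. These 3, like the 3 that follow, were lower labelled +/fl than labelled fl/fl in contractile and other cells alike. Vwa1, a matrix protein of the von Willebrand A family, had 87.5 and 43.2 CPM labelled fl/fl, and 60.4 and 21.9 CPM labelled +/fl. Igfbp4, a binding protein of insulin-like growth factors, had 272 and 112 CPM labelled fl/fl, and 196 and 62.6 CPM labelled +/fl. Gpx3, a secreted glutathione peroxidase, had 381 and 170 CPM labelled fl/fl, and 203 and 82.5 CPM labelled +/fl. The apolipoproteins stood beside them, Apoe at 2154 and 779 CPM labelled fl/fl and 1436 and 444 CPM labelled +/fl. Apoc1 was at 126 and 50.6 CPM labelled fl/fl, and at 103 and 53.0 CPM labelled +/fl, where its log2 ratio of 0.95 fell short of 2-fold.

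The other named genes were regulators and surface proteins. Scx, scleraxis, a transcription factor of tendon cells, had 115 CPM (107 to 122) in contractile and 43.2 CPM (36.1 to 51.4) in other cells labelled fl/fl. Labelled +/fl it had 72.3 CPM (66.0 to 79.0) and 17.4 CPM (13.3 to 22.3). It was the only transcription factor among the 15. Rasl11a, a Ras-like GTPase, had log2 ratios of 1.62 labelled fl/fl and 1.67 labelled +/fl, Ptprz1, a receptor tyrosine phosphatase, 1.51 and 1.87, Bcam, a laminin receptor, 1.67 and 1.06, and Cpne8, a copine, 1.32 and 1.23. Cxcl14, a chemokine, had 107 and 38.2 CPM labelled fl/fl, and 64.8 and 23.6 CPM labelled +/fl, where 5 other Ccl21a-high cells held 72.6% of that group's UMIs. The plot shows the 15 genes with their intervals in each library.

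**Figure D2:**
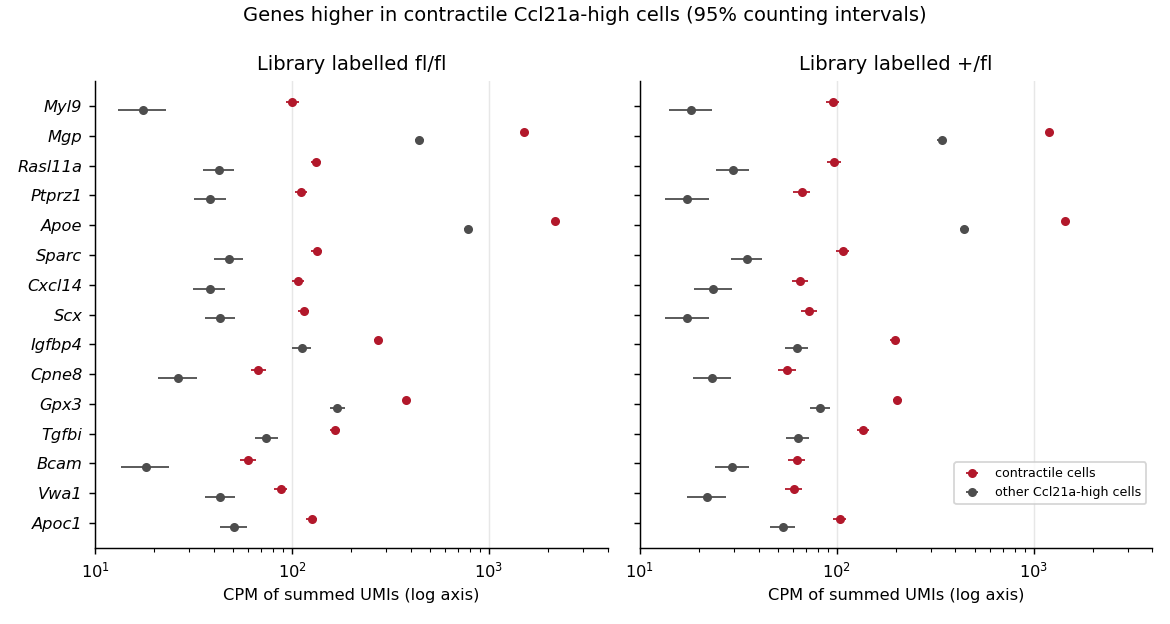
Level (CPM, log axis) of the 15 named genes higher in contractile cells, in contractile cells (red) and other Ccl21a-high cells (grey), labelled fl/fl (left panel) and +/fl (right panel); bars are 95% counting intervals. Myl9 has the widest gap, 101 against 17.4 CPM labelled fl/fl and 95.3 against 18.2 CPM labelled +/fl, and Apoe and Mgp the highest levels.

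Levels of some genes outside the rule were also set out by the contractile sum. The sum is the value that chose the cells, so the trends below are descriptions and were not tested. Cells were placed in bins of the sum at 0, above 0 to 5, 5 to 10, 10 to 20, 20 to 40 and 40 or more per 10,000, the last 4 holding 210, 324, 316 and 164 contractile cells labelled fl/fl and 162, 194, 145 and 75 labelled +/fl. Over these 4 bins Myl9 had 45.6, 61.1, 115 and 236 CPM labelled fl/fl, and 27.7, 58.3, 144 and 278 CPM labelled +/fl. Krt14, a keratin of basal epithelial cells, had 1204, 1170, 1628 and 2241 CPM labelled fl/fl, and 1641, 2097, 2375 and 2534 CPM labelled +/fl. Krt5, another such keratin, had 1520, 1452, 1591 and 1736 CPM labelled fl/fl. Labelled +/fl Krt5 had 2732, 3198, 2713 and 2560 CPM, lowest in the top bin. Mgp had 1131, 1461, 1770 and 1646 CPM labelled fl/fl, and 908, 1014, 1620 and 1606 CPM labelled +/fl, close to level over the last 2 bins. Ch25h, the enzyme that makes 25-hydroxycholesterol, had 171, 198, 201 and 149 CPM labelled fl/fl, and 111, 183, 161 and 122 CPM labelled +/fl, and was lower in the top bin than in the middle ones. In the opposite direction, Fabp5, a fatty acid binding protein, had 1327, 1226, 708 and 604 CPM labelled fl/fl, and 1103, 777, 635 and 373 CPM labelled +/fl. Cldn3, a tight junction claudin, had 64.1, 43.5, 19.1 and 13.4 CPM labelled fl/fl, and 55.5, 10.3, 14.1 and 5.0 CPM labelled +/fl. Median depth moved little over the 4 bins, 7642.5, 6718, 6550.5 and 6891 UMIs labelled fl/fl and 11259, 10682, 10609 and 10030 labelled +/fl. Cells with a sum of 0 were shallower, with a median of 4310 UMIs labelled fl/fl and 6975 labelled +/fl.

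**Figure D3:**
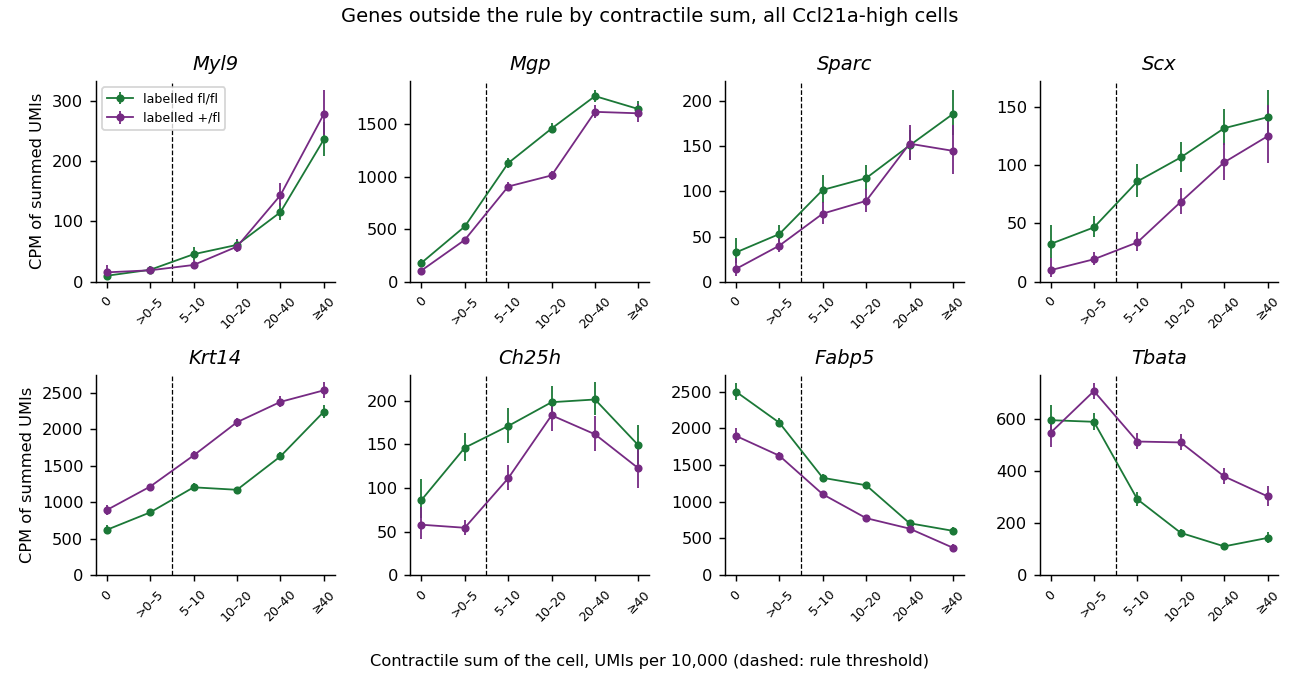
Level (CPM, with 95% counting intervals) of Myl9, Mgp, Sparc, Scx, Krt14, Ch25h, Fabp5 and Tbata in Ccl21a-high cells by the summed Tagln, Acta2, Fst and Gas1 per 10,000, labelled fl/fl and +/fl; the dashed line is the rule's threshold. Myl9 is highest in the top bin, 236 CPM labelled fl/fl and 278 CPM labelled +/fl, and Fabp5 lowest there, 604 and 373 CPM.

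Genes lower in contractile cells included epithelial junction genes and genes of peripheral tissues or other lineages. Cldn3 had 36.5 CPM in contractile and 108 CPM in other cells labelled fl/fl, and 25.1 and 73.5 CPM labelled +/fl, and Cldn7, another claudin, had 54.2 and 125 CPM labelled fl/fl, and 43.0 and 121 CPM labelled +/fl. Fxyd2, a subunit of the sodium pump, had 95.5 and 254 CPM labelled fl/fl, and 191 and 556 CPM labelled +/fl. Igf1, a growth factor, had 30.8 and 127 CPM labelled fl/fl, and 37.5 and 109 CPM labelled +/fl. Spock3, a matrix proteoglycan, had log2 ratios of -1.95 labelled fl/fl and -1.77 labelled +/fl, Vmo1 -2.22 and -2.56, Gja4, a connexin, -1.20 and -1.16, Insm1, a neuroendocrine transcription factor, -1.47 and -1.37, and Ooep, an oocyte gene, -1.69 and -1.42. Cystm1 had -1.63 and -1.86, and the blood cell genes Cd52 and Laptm5 had -1.72 and -1.56, and -1.55 and -1.21. The remaining 3 named genes rested on few cells. Calca, which encodes calcitonin, had 12.7 and 72.1 CPM labelled fl/fl, and 14.1 and 127 CPM labelled +/fl, with 71.2% and 82.1% of the UMIs of other Ccl21a-high cells in 5 cells. Fabp4 and Cyp2a5 had 81.0% and 90.4% of those UMIs in 5 cells labelled +/fl.

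The genes lower in contractile cells depended on the Ccl21a threshold more than the higher ones. With Ccl21a at 100 or more per 10,000 in all cells compared, 12 genes were at least 2-fold higher in both libraries and 2 genes lower, against 14 and 25. Of the 15 named higher genes 11 were at least 2-fold higher in both libraries there, with Myl9 at log2 ratios of 2.24 labelled fl/fl and 2.03 labelled +/fl, Mgp at 1.44 and 1.47 and Scx at 1.19 and 1.58. Of the 15 named lower genes 1 was at least 2-fold lower in both, Fxyd2, at -1.63 and -1.81, and 13 kept their sign in both. Fabp4 and Cyp2a5 changed sign labelled +/fl, to 0.04 and 0.24.

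Most contractile apparatus genes beyond Tagln, Acta2 and Myl9 were higher by less than 2-fold. Of 32 genes on the list 24 passed the filter on low counts; 19 were higher in contractile cells of both libraries and 3 lower, and Myl9 was the only one past 2-fold. Their median log2 ratio was 0.43 labelled fl/fl and 0.30 labelled +/fl, beside -0.03 and -0.02 over all genes compared. Of all genes compared, 33.5% were higher and 41.7% lower in both libraries, and 0.486% at least 2-fold higher. Cnn2, a calponin, had 157 CPM in contractile and 91.5 CPM in other cells labelled fl/fl, and 164 and 99.04 CPM labelled +/fl. Myl6, the essential myosin light chain, had 1285 and 813 CPM labelled fl/fl, and 1242 and 849 CPM labelled +/fl. Tropomyosins, caldesmon and filamin, which bind actin filaments, were alike in size: the log2 ratio of Tpm1 was 0.68 labelled fl/fl and 0.50 labelled +/fl, of Cald1 0.65 and 0.46, and of Flna 0.69 and 0.61. The general actins Actb and Actg1 were within 0.11 of 0, at 0.11 and -0.07, and at 0.01 and -0.08. Of the 5 genes with a full CArG box, Myl9, Myl6 and Cnn2 stand above, Vcl (vinculin) had 113 and 96.9 CPM labelled fl/fl and 120 and 99.9 CPM labelled +/fl, and Actg1 was level.

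Markers that define smooth muscle differed among themselves. Cnn1, smooth muscle calponin, had 0.39 CPM in contractile cells labelled fl/fl and 0 UMIs in those labelled +/fl. Myh11, smooth muscle myosin, had 74.2 and 64.7 CPM in contractile and other cells labelled fl/fl, and 62.5 and 60.6 CPM labelled +/fl. Lmod1, leiomodin, which nucleates actin in smooth muscle, had 48.0 CPM (43.2 to 53.2) and 20.1 CPM (15.3 to 25.9) labelled fl/fl, and 34.0 CPM (29.7 to 38.7) and 22.2 CPM (17.5 to 27.6) labelled +/fl. Des, desmin, was lower in contractile cells, at 37.8 and 55.3 CPM labelled fl/fl and 19.4 and 36.8 CPM labelled +/fl. Myocd, the smooth muscle cofactor of SRF, had 0 UMIs in all 4 groups, and Srf had 57.6 and 56.3 CPM labelled fl/fl and 40.2 and 46.9 CPM labelled +/fl. Of these smooth muscle genes Lmod1 was higher in contractile cells of both libraries, with counting intervals clear of those in other cells. Lmod1 was below the filter on low counts in both libraries, so it was not among the genes compared. Its intervals cover counting error only, not the spread between cells, so the gap is a description. Myl9 was higher too, as were Tagln and Acta2, which helped to choose the cells. Cnn1 and Myocd were at or near 0.

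Epithelial markers were present in contractile cells. Epcam had 1051 CPM in contractile and 1168 CPM in other cells labelled fl/fl, and 932 and 1063 CPM labelled +/fl. Krt5 and Krt14, keratins of basal epithelium, and Trp63, their regulator, were higher in contractile cells: Krt5 at 1552 and 1318 CPM labelled fl/fl and 2856 and 2185 CPM labelled +/fl, Krt14 at 1477 and 804 CPM and at 2070 and 1150 CPM, and Trp63 at 209 and 146 CPM and at 146 and 97.6 CPM. Of 30 basal and progenitor genes 19 passed, of which 14 were higher in both libraries and 4 lower, with medians of 0.24 and 0.18. Of 15 mature mTEC genes 11 passed, of which 0 were higher in both libraries and 7 lower, with medians of -0.32 and -0.30. Aire, the regulator of peripheral antigen expression in mature mTECs, had 70.3 and 96.9 CPM labelled fl/fl, and 45.3 and 72.7 CPM labelled +/fl. Fezf2, another such regulator, had 139 and 222 CPM labelled fl/fl, and 171 and 216 CPM labelled +/fl. At equal depth, as given below, a smaller share of contractile than of blood cells had an Aire UMI in both libraries. Over all genes compared, 33.5% were higher and 41.7% lower in both libraries.

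Fibroblast and endothelial markers were low, though the rule itself dropped cells by 4 fibroblast genes. The 9 genes of the fibroblast list summed to 9.83 CPM in contractile cells and 10.7 CPM in other cells labelled fl/fl, and to 11.4 and 10.4 CPM labelled +/fl, with each gene under 5 CPM and 1 gene at 0 in each group. The endothelial list summed to 6.29 and 9.38 CPM labelled fl/fl, and to 9.20 and 12.1 CPM labelled +/fl. The pericyte and smooth muscle list summed to 597 and 883 CPM labelled fl/fl, and to 625 and 854 CPM labelled +/fl, most of it Rgs5, at 456 and 739 CPM and at 501 and 725 CPM. Myeloid markers summed to 101 and 246 CPM labelled fl/fl, and to 52.1 and 76.9 CPM labelled +/fl, T-lineage markers to 44.98 and 26.5 CPM and to 57.4 and 70.4 CPM, and tuft markers to 166 and 161 CPM and to 241 and 719 CPM. The counting intervals of the fibroblast and of the endothelial sums overlapped between contractile and other cells in both libraries, and Rgs5 was lower in contractile cells of both. In cells with no UMI of Col3a1, Prrx1, Dcn, Bgn, Col1a1 or Col1a2, the log2 ratio of Myl9 was 2.46 labelled fl/fl and 2.63 labelled +/fl. That of Mgp was 1.70 and 2.05 in those cells. Contractile cells without such a UMI were 8.69% of passing cells labelled fl/fl and 5.47% labelled +/fl, beside 12.4% and 11.3% for all contractile cells. Among Ccl21a-high cells without such a UMI, 70.7% and 64.0% were contractile, beside 73.7% and 70.1% before. Contractile cells thus held a UMI of these 6 genes more often than other Ccl21a-high cells did.

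Genes of the pathways that Fst and Gas1 act in were counted next, beside 33.5% of all genes higher and 41.7% lower in both libraries. Of 21 inhibitors and targets 8 passed the filter, and these 8 were higher in contractile cells of both libraries, with median log2 ratios of 0.52 and 0.50. Id1 and Id3, targets of BMP signalling, had 542 and 342 CPM and 786 and 471 CPM labelled fl/fl, and 585 and 295 CPM and 918 and 542 CPM labelled +/fl. Of 18 SRF and YAP target genes 9 passed and 8 were higher in both libraries, with medians of 0.31 and 0.29, Cyr61 at 683 and 343 CPM labelled fl/fl and 516 and 272 CPM labelled +/fl among them. Of 13 Hedgehog genes 2 passed, and Boc, which acts with Gas1 as a co-receptor, was higher, at 88.3 and 55.6 CPM labelled fl/fl and 74.9 and 40.7 CPM labelled +/fl. The Hedgehog target Gli1 had 0.13 CPM in contractile cells labelled fl/fl and 0 UMIs in those labelled +/fl. Of 34 matrix and basement membrane genes 14 passed, of which 10 were higher in both libraries and 2 lower, with medians of 0.39 and 0.21. Of 15 NF-κB and TNF receptor genes, a pathway needed for mTEC maturation, 8 passed, of which 1 was higher and 7 were lower, with medians of -0.26 and -0.29. The interferon-stimulated list (12 of the 14 that passed higher, 1 lower, medians 0.39 and 0.31) and the dissociation stress list (14 of 16 higher, 1 lower, medians 0.20 and 0.26) were on the higher side too, and their part in the other differences was not tested. At Ccl21a of 100 or more per 10,000 the interferon medians were 0.15 and 0.10.

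**Figure D4:**
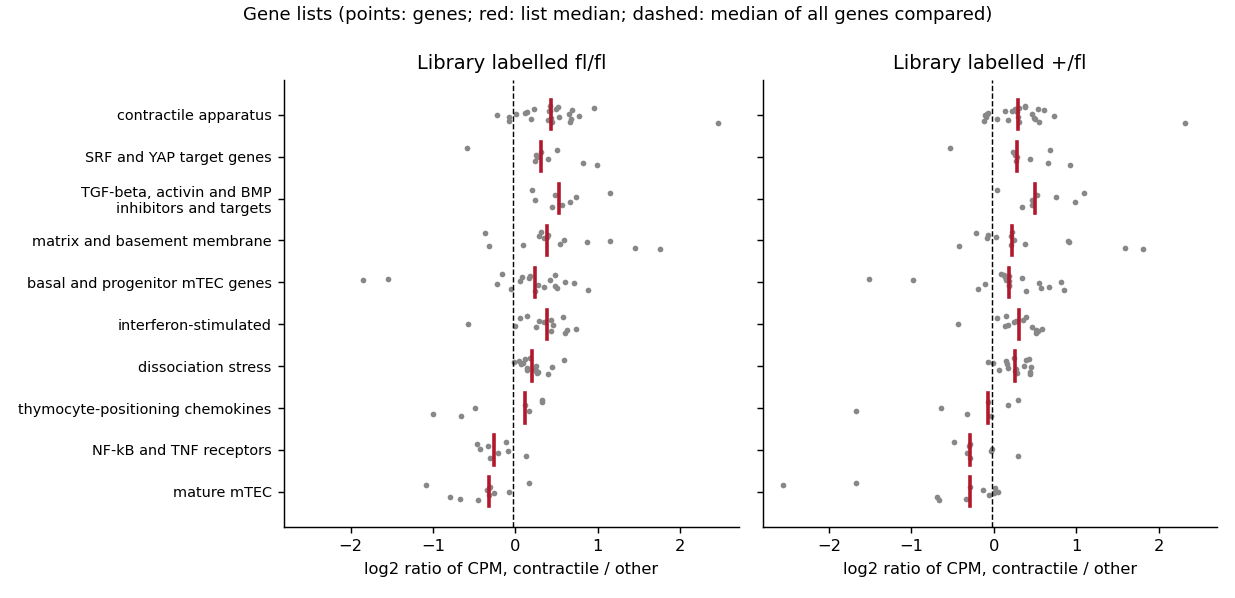
Log2 ratio of contractile over other Ccl21a-high cells for each gene of 10 lists that passed the filter on low counts, labelled fl/fl and +/fl, with each list's median in red and the median of all genes compared dashed. The contractile apparatus genes lie mostly above 0 with medians of 0.43 labelled fl/fl and 0.30 labelled +/fl, and the mature mTEC genes mostly below, at -0.32 and -0.30.

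Chemokines other than Ccl21a were divided. Of 15 thymocyte-positioning chemokines 7 passed, of which 2 were higher and 3 lower in contractile cells of both libraries. Over all genes compared these shares were 33.5% and 41.7%. Ccl19, the other CCR7 ligand, had 138 and 219 CPM labelled fl/fl, and 180 and 185 CPM labelled +/fl, while Cxcl12, which attracts early thymocytes, had 77.2 and 51.6 CPM labelled fl/fl, and 47.9 and 30.0 CPM labelled +/fl. Il7, the thymocyte survival cytokine, had 274 and 218 CPM labelled fl/fl, and 405 and 331 CPM labelled +/fl. Ch25h had 185 CPM (176 to 195) and 132 CPM (119 to 145) labelled fl/fl, and 148 CPM (138 to 157) and 55.0 CPM (47.6 to 63.3) labelled +/fl, so its log2 ratio was 0.49 labelled fl/fl and 1.41 labelled +/fl.

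Shares of cells with a UMI were set against blood cells of the same libraries (no Epcam UMI and at least 2 of Ptprc), which should lack these genes, after thinning each cell to 4000 UMIs. Shallower cells were left out, 201 contractile, 89 other and 47 blood cells labelled fl/fl, and 53, 35 and 28 labelled +/fl. Myl9 was found in 26.1% of contractile cells, 5.51% of other Ccl21a-high cells and 0 of 56 blood cells labelled fl/fl, which by a floor of 3 cells allows a share with a UMI of up to 5.36%. Labelled +/fl it was found in 26.4%, 7.6% and 0 of 59, which allows up to 5.08%. Mgp was found in 81.8%, 46.7% and 8.93% labelled fl/fl, and in 75.9%, 43.6% and 5.1% labelled +/fl. Tagln was found in 80.4%, 20.6% and 7.14% labelled fl/fl, and in 71.5%, 15.6% and 5.1% labelled +/fl. Before thinning, Tagln stood at 83.9%, 23.3% and 7.77% labelled fl/fl, and at 79.7%, 29.3% and 9.2% labelled +/fl. Ccl21a had a UMI in 41.1% of blood cells labelled fl/fl and 42.4% of those labelled +/fl. Calca, at 3.57%, 7.72% and 5.36% labelled fl/fl, was close to its share in blood cells. Aire was found in 21.2% of contractile, 28.3% of other Ccl21a-high and 42.9% of blood cells labelled fl/fl. Labelled +/fl its shares were 11.7%, 18.0% and 15.3%. Median depth before thinning was 4440 UMIs in blood cells labelled fl/fl and 7397 in those labelled +/fl.

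The genotypes were compared next within contractile cells, beginning with the targeted gene. Ikzf1 had 12.2 CPM (9.84 to 14.9) labelled fl/fl and 17.1 CPM (14.1 to 20.5) labelled +/fl, with UMIs in 7.59% and 13.4% of contractile cells. The counts come from 3′ ends and the deleted exons are not given, so this level does not check the labels. In thinned cells, Ikzf1 was found in 4.18% of contractile cells labelled fl/fl and 4.2% of those labelled +/fl, and in 28.6% and 28.8% of blood cells.

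The 4 rule genes differed by less than 2-fold between genotypes. Tagln had 1218 CPM labelled fl/fl and 1017 CPM labelled +/fl, Acta2 520 and 436 CPM, Fst 280 and 185 CPM, and Gas1 430 and 467 CPM. Over 3018 genes, 31 (1.03%) were at least 2-fold higher and 15 (0.497%) at least 2-fold lower labelled fl/fl. In other Ccl21a-high cells, 70 of 3208 genes (2.18%) were higher and 34 (1.06%) lower by that much, from fewer cells. Of the 24 contractile apparatus genes that passed, 0 reached 2-fold, 17 were higher and 7 lower, with a median of 0.10 beside 0.02 over all genes, of which 54.2% were higher. Thbs1, a matrix protein and YAP target, was past 2-fold, at 88.9 CPM labelled fl/fl and 34.6 CPM labelled +/fl. It was the only one past 2-fold of the 10 SRF and YAP target genes compared. Of those 10, 8 were higher and 2 lower, with a median of 0.25, and of 0.23 in other Ccl21a-high cells. Of the 15 genes compared on the matrix and basement membrane list, 0 reached 2-fold.

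The largest differences were those of Xist and Ddx3y, genes of the sex chromosomes. Ddx3y, on the Y chromosome, had 71.5 CPM (65.6 to 77.7) labelled fl/fl and 0 UMIs labelled +/fl, at least 161-fold higher against a floor of 3 UMIs in the group. Xist, which silences 1 X chromosome in females, had 1.05 CPM labelled fl/fl and 1173 CPM labelled +/fl. Tsix, its antisense partner, had 6.69 and 58.5 CPM, and reads of the pair may not be separable. Sex and genotype as labelled therefore cannot be told apart in any difference between the libraries.

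Among the named genes lower labelled fl/fl were Krtdap, Ly6d and Sostdc1. Krtdap and Ly6d, both genes of keratinising epithelium, had 177 and 133 CPM labelled fl/fl, and 852 and 700.1 CPM labelled +/fl. Their log2 ratios were -2.26 and -2.39 in contractile cells and -2.45 and -1.25 in other Ccl21a-high cells. Sostdc1 had 31.996 CPM (28.1 to 36.3) labelled fl/fl and 115 CPM (107 to 124) labelled +/fl, with log2 ratios of -1.82 in contractile and -1.49 in other cells. Of the 10 TGF-β and BMP inhibitors and targets compared, Sostdc1 was the only one past 2-fold lower, and 4 were higher and 6 lower, with a median of -0.09. Over all genes, 54.2% were higher and 0.497% at least 2-fold lower, with a median of 0.02. Krt5 had 1552 and 2856 CPM and Krt14 1477 and 2070 CPM, with log2 ratios of -0.88 and -0.49. Stmn2, a tubulin-binding protein, had 141 CPM labelled fl/fl and 526 CPM labelled +/fl. Tbata had 173 and 454 CPM, Dapl1 168 and 421 CPM, and the chemokine Ccl2 54.2 and 134 CPM, each with a smaller ratio in other Ccl21a-high cells, -0.19, -0.27 and -0.27, than in contractile cells, -1.38, -1.32 and -1.30. Those differences of ratios were not tested. Cdkn1c, a cell cycle inhibitor, had 51.7 and 236 CPM, with 84.8% of the UMIs labelled +/fl in 5 cells.

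Several genes that were higher labelled fl/fl rested on few cells. Lyz1 (53.1 CPM labelled fl/fl, 2.67 CPM labelled +/fl), Ccl20 (89.2 and 5.79 CPM) and Pglyrp1 (66.9 and 5.64 CPM), antimicrobial or mucosal genes, had 50.4%, 58.8% and 62.4% of their UMIs labelled fl/fl in 1 cell. Hamp (hepcidin) and Reg3g, an antimicrobial lectin, had 36.1% and 33.1% in 1 cell, with 55.2 and 3.41 CPM, and 245 and 50.01 CPM. Without the 5 highest cells of each gene, an alternative chosen after seeing the data, the log2 ratio of Ccl20 was 1.68 in place of 3.73, that of Pglyrp1 1.85 in place of 3.35 and that of Cdkn1c -0.47 in place of -2.17. Fabp4 was spread more widely, with UMIs in 37.5% of contractile cells labelled fl/fl and 14.6% labelled +/fl, 266 and 22.1 CPM, and a log2 ratio of 3.28 without those cells. The predicted gene Gm8113 had 208 and 10.1 CPM, with UMIs in 42.4% and 6.25% of contractile cells, and a log2 ratio of 3.24 in other Ccl21a-high cells. Sncg, a synuclein, had 54.5 and 10.4 CPM, and Sprr2a3, an epidermal envelope gene, 86.2 and 14.5 CPM. The plot of the 20 genes sets these values beside one another.

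**Figure D5:**
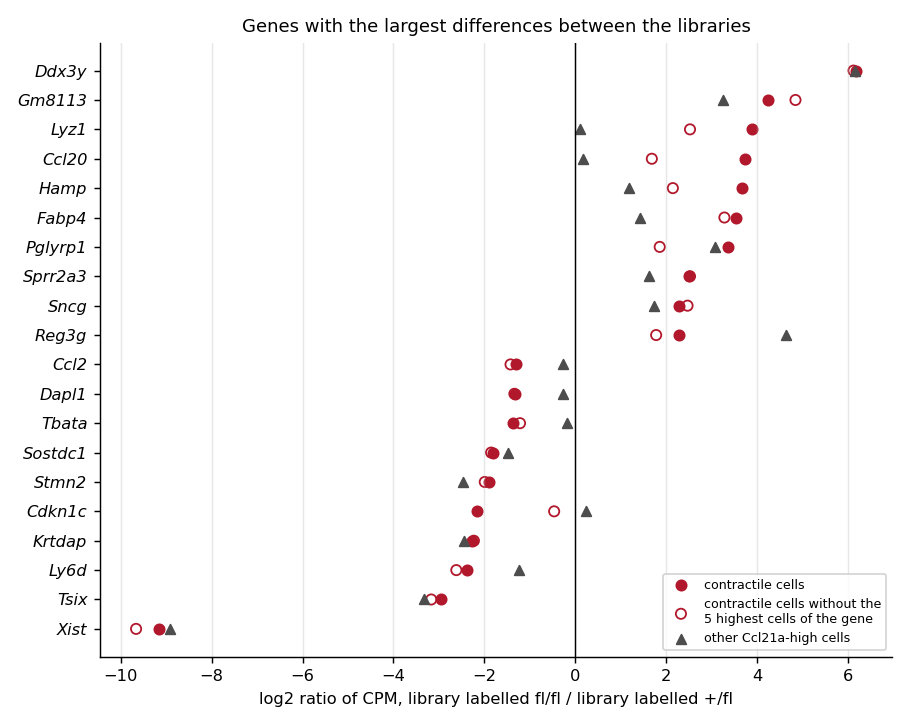
Log2 ratio of labelled fl/fl over labelled +/fl for 20 named genes, in contractile cells (filled red), in contractile cells without the 5 highest cells of each gene (open red) and in other Ccl21a-high cells (grey triangles). Cdkn1c moves to -0.47 and Ccl20 to 1.68 without those cells, while Krtdap, Ly6d and Sostdc1 stay at -2.23, -2.62 and -1.85.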

How the data were processed

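Single-cell UMI counts were deposited by the authors as 1 filtered gene-by-cell matrix per library, made with a 10x 3′ kit; Cell Ranger and Seurat are named, without versions, per the submitters' processing notes, and the matrix header gives software version 3.1.0, per the file headers. What build they counted on is not given in the sources used here; coordinates are those of GENCODE on GRCm38, matched by Ensembl ID. Each repeated gene symbol was taken from its row with the most UMIs.

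Cells were filtered and chosen as described above. Raw counts were summed per library and group and scaled to CPM. Genes were compared where a group reached 50 CPM and both groups together 50 UMIs, and called at 2-fold. With 1 library per genotype no test or p-value was computed. The members and the 34 gene lists were chosen with earlier results of these data known. Named genes are the 15 highest and 15 lowest by the smaller ratio of the 2 libraries between contractile and other cells, the 10 highest and 10 lowest between genotypes, and members of the lists. For thinned shares each cell was reduced to 4000 UMIs at random.

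No doublets were removed: the automatic threshold of Scrublet (in scanpy 1.11.5) marked 0 cells labelled fl/fl and 2 cells labelled +/fl, below the 0.5% at which it counts as working. An alternative removed the highest scores at 0.8% per 1000 cells, 539 and 208 cells, of which 56 and 8 were contractile. Computation used Python 3.11.15, numpy 2.4.6, scipy 1.17.1, pandas 2.3.3 and matplotlib 3.10.9, and the code was tested on simulated data.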

Additional observations from a re-analysis of the deposited data

Results flagged for a closer look

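For 5 named genes the ratio of contractile over other Ccl21a-high cells pointed in opposite directions in the 2 libraries, with counting intervals clear of 0 in both; the difference between the libraries was not tested. Ccl20 had a log2 ratio of 1.46 labelled fl/fl and -2.11 labelled +/fl, and 1 contractile cell held 58.8% of its UMIs labelled fl/fl. Cdkn1c had -1.80 labelled fl/fl and 0.59 labelled +/fl, where 5 contractile cells held 84.8% of its UMIs. Ly6d had -0.86 labelled fl/fl and 0.28 labelled +/fl. Dapl1 had -0.34 labelled fl/fl and 0.71 labelled +/fl, and Ccl2 had -0.52 and 0.50.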

How the results depend on the processing

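No paired analysis was possible because each genotype has 1 library. Contractile cells were 12.4% of passing cells labelled fl/fl and 11.3% of those labelled +/fl, and became 14.1% and 13.4% with a stricter cell filter, 9.80% and 8.12% at a contractile sum of 10 per 10,000, 9.69% and 9.49% at Ccl21a of 100, 8.69% and 5.47% with no mesenchymal UMI allowed, and 14.0% and 16.7% with no cell dropped. Of Ccl21a-high cells they were 58.5% and 50.4% at a sum of 10, 79.5% and 79.1% at Ccl21a of 100, 70.7% and 64.0% with no mesenchymal UMI, and 77.2% labelled fl/fl after thinning. Genes at least 2-fold higher in contractile cells of both libraries numbered 14, and 7 at a sum of 10, 26 with the filter at 10 CPM and 20 UMIs, 48 with no gene filter and 27 without the 5 highest cells of each gene, which removes a larger share of the smaller group. Genes lower numbered 25, and 2 at Ccl21a of 100, 121 with the low filter and 268 with none. Between genotypes, genes higher labelled fl/fl numbered 31, and 130 with the low filter and 541 with none; genes lower numbered 15, and 72 and 193 with those filters and 30 with no cell dropped. The causes were not tested. Of 880 ratios of named genes under these alternatives 877 kept their sign; the exceptions were Fabp4 (0.038) and Cyp2a5 (0.24) labelled +/fl at Ccl21a of 100, and Cdkn1c between genotypes (0.038) at a sum of 10.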

Other observations

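Genes and lists outside the comparisons above are given as values. Col6a1, a collagen VI chain, had 215 CPM in contractile and 117 CPM in other Ccl21a-high cells labelled fl/fl, and 178 and 94.0 CPM labelled +/fl. Col6a2, another chain, had 99.5 and 44.2 CPM labelled fl/fl, and 89.0 and 47.1 CPM labelled +/fl. Pdgfa, a growth factor for mesenchymal cells, had 191 and 115 CPM labelled fl/fl, and 155 and 81.9 CPM labelled +/fl. Igfbp2 had 57.4 and 18.4 CPM labelled fl/fl, and 34.7 and 12.3 CPM labelled +/fl, where it was below the filter. F3, tissue factor, had 108 and 60.3 CPM labelled fl/fl, and 60.2 and 37.9 CPM labelled +/fl.

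Of the Notch and Wnt lists 4 genes each passed the filter, with 1 and 2 higher and 2 and 1 lower in both libraries. Of 10 mesenchymal transition regulators 4 passed, with 1 higher and 2 lower. Of all genes compared, 33.5% were higher and 41.7% lower in both libraries. Markers of keratinocyte-like cells summed to 414 CPM in contractile and 511 CPM in other cells labelled fl/fl, and to 1657 and 1168 CPM labelled +/fl. Myoid markers summed to 28.5 and 46.6 CPM labelled fl/fl, and to 51.9 and 76.3 CPM labelled +/fl. Erythroid markers summed to 5.38 and 50.6 CPM labelled fl/fl, and to 0.89 and 9.54 CPM labelled +/fl.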
